A study of Mus musculus with 22 samples.

Results

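Mouse embryonic stem cells (ESCs), the pluripotent cells of the early embryo kept in culture, were sequenced as 4 samples of the 22 in the series, and they are compared here by replicate number. The labels give 1 wild type (WT) and 1 Phf8 knockout (KO) sample for each number, on a B6x129SvJ background, so that replicate 2 (ESC-WT2 and ESC-KO2) and replicate 1 (ESC-WT1 and ESC-KO1) each comprised 2 samples. The question was how far the cultures behind the replicate numbers differed, with genotype held as a factor. The labels do not say what the number stands for, and a passage, clone, culture day or library batch cannot be told apart. They state that the ESCs came from blastocyst outgrowths and were grown on gelatin or feeders, without saying which sample had feeders, and the KO allele was made by targeting and Cre excision in clonally expanded ESCs. Nothing in the labels says that the samples were separate cultures, so the p-values below measure only the spread between these samples.

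Feeders are fibroblasts whose division has been stopped and on which ESCs are commonly grown, since they secrete matrix and growth factors. Fibroblasts make the interstitial collagens, fibronectin and the enzymes that crosslink and trim them, whereas ESCs make a basement membrane of laminin and type IV collagen and rely on a network of transcription factors around Pou5f1, Sox2 and Nanog. In RNA from a whole dish, a change in the number of cells of a type and a change in RNA per cell cannot be told apart, and this holds for every gene below.

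Counts on genes ranged from 11455757 to 13657534 per sample, and levels are given here in CPM, the count scaled to library size after TMM normalisation. Of the aligned reads or read pairs, between 43.2% and 45.5% were set aside as not unique, and mitochondrial genes held 1.52% and 1.57% of the counts in the replicate 1 samples against 1.80% and 1.97% in the replicate 2 samples. Phf8, the deleted histone demethylase gene, stood at 59.5 CPM in WT1, 54.7 CPM in WT2, 13.4 CPM in KO1 and 19.6 CPM in KO2, lower in both KO samples than in both WT samples. The ESC markers were high in all samples, with Pou5f1 between 736 and 841 CPM. Muscle (Myod1, Myog), keratinocyte (Krt5, Krt14, Trp63) and endothelial (Cdh5) markers were below 1 CPM in every sample, as were the leukocyte markers Ptprc and Csf1r. Other markers of these lists were detected, with Des at 12.8 to 15.4 CPM and Krt17 at 11.1 to 17.7 CPM. Tek was at 9.57 to 20.4 CPM (log2 -0.66, lower in replicate 2). Kdr was at 1.19 to 5.24 CPM (log2 1.22), and this rise rested on KO2, the highest sample. Without KO2, and with genotype then not a factor, the log2 fold change of Kdr was 0.005.

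Of the lists described here, chosen with earlier results of these data known, the fibroblast list had the largest median difference between replicate numbers. Of 15080 genes tested with edgeR's quasi-likelihood test (genotype and replicate number as terms, 1 residual degree of freedom), 3104 were higher and 2526 lower in replicate 2 at an FDR under 0.05, which is 20.6% and 16.8% of the genes tested. The larger changes were nearly all upward, with 1206 genes (8.00%) more than 2-fold higher and 101 (0.670%) more than 2-fold lower at the same FDR. The median log2 fold change over all genes was 0.000289. Counts called in each list below are to be read beside the 20.6% and 16.8% of all genes. Fits with 1 sample left out, here and below, also left out genotype as a term. Calls lost in them cannot be put down to the sample alone. The number of small changes called depended on the setting, with a biological coefficient of variation of 4.37% from these 4 samples. With the spread shared with all 22 samples 1341 genes were higher and 638 lower. TMM factors were then also taken over all 22 samples, and the median log2 fold change was -0.092, so those counts do not reflect the spread alone.

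The WT and KO pairs gave the same replicate difference for genes that rose. Of 1180 genes more than 2-fold higher in WT2 than in WT1, 88.0% were more than 2-fold higher in KO2 than in KO1, and of the 1297 such genes in the KO pair, 80.0% were shared with the WT pair. Downward, 150 genes in the WT pair and 206 in the KO pair passed the same fold, and 34 were shared, that is 34 of the 150 and 34 of the 206. Across the 15080 genes, the differences of both pairs, which share no sample, gave Pearson's r = 0.88 and Spearman's rho = 0.68 as a description (genes are not independent replicates).

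**Figure D1:**
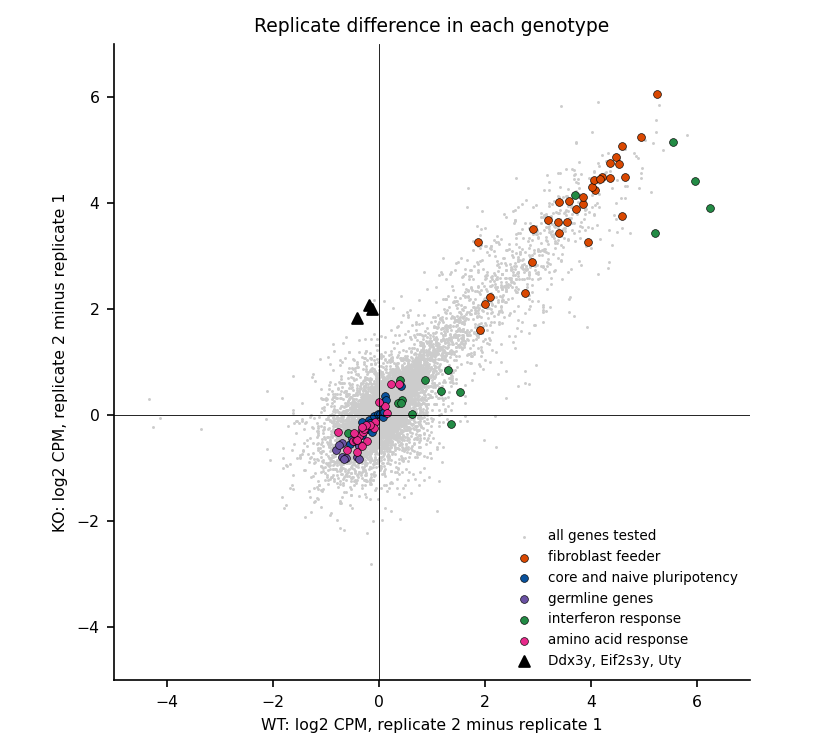
Replicate difference (log2 CPM with a prior count of 2, replicate 2 minus replicate 1) in the WT pair (x axis) and the KO pair (y axis) for 15080 genes, with 5 gene lists in colour. Fibroblast genes lay far up the diagonal in both pairs, germline genes below 0 in both, and the Y-linked genes Ddx3y, Eif2s3y and Uty (triangles) rose only on the KO axis, a contrast that did not pass a test of the difference.

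The fibroblast list rose as a whole. All 31 of its 32 members that could be tested were higher in replicate 2, each more than 2-fold, beside 20.6% of all genes higher. The median log2 fold change was 4.18, with a range of 1.77 to 5.77, and Dpt was too low to test. Members near 0 in replicate 1, such as Lum and Fap, passed the expression filter only through replicate 2, where they are high. With at least 10 counts required in each sample, 26 were higher and 0 lower. Col6a1, which encodes a chain of the microfibrillar type VI collagen, was at 7.14 CPM in WT1 and 6.75 CPM in KO1 against 162 CPM in WT2 and 203 CPM in KO2. The replicate numbers did not overlap, and the log2 fold change was 4.72 (SE 0.09, adjusted p = 4.1e-117 in edgeR). Its partners Col6a2 (log2 fold change 4.41) and Col6a3 (log2 fold change 4.19) moved with it.

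The fibrillar collagens rose by similar factors. Col1a1 counted 68.8 CPM in WT1, 65.3 CPM in KO1, 1421 CPM in WT2 and 1771 CPM in KO2, a 23.7-fold difference (log2 4.57, SE 0.07). Its chain partner Col1a2 rose from 50.5 and 44.6 CPM to 1212 and 1516 CPM in the same order, and Col3a1 from 11.0 and 10.5 CPM to 344 and 407 CPM. For all 3 genes both replicate 2 samples lay far above both replicate 1 samples, and KO2 was the highest. Per length of transcript, Acta2 (smooth muscle actin of contractile fibroblasts) and Col1a1 were the highest of the list, at 219 and 217 RPKM in WT2 and 274 and 270 RPKM in KO2.

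Other marks of mesenchymal cells changed alike. Thy1, the surface antigen used to sort fibroblasts, was at 4.42 and 3.74 CPM in WT1 and KO1 and at 54.5 and 64.0 CPM in WT2 and KO2. Pdgfrb, the receptor for platelet-derived growth factor B, had a log2 fold change of 3.50 (SE 0.13). The mesenchymal transcription factors Prrx1, Snai2, Twist2 and Twist1 had log2 fold changes of 4.46, 3.67, 4.52 and 1.77, so that Twist1 rose least of the list. The periostin gene Postn had the largest change of the list, from 2.38 and 1.61 CPM to 96.7 and 118 CPM (log2 5.77, SE 0.12). The small proteoglycan genes Dcn and Lum stayed low even in replicate 2, at 3.66 and 4.01 CPM for Dcn and 2.39 and 1.83 CPM for Lum, although fibroblasts of connective tissue express both strongly. With 2 counts in the replicate 1 samples together, the ratio for Dcn was 48.5 (95% exact interval 13.1 to 407, counting error only).

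KO2 had more of these transcripts than WT2. In 29 of the 31 genes, Lum and Snai2 excepted, KO2 was above WT2, with a median log2 difference of 0.29, while KO1 and WT1 differed by a median of 0.02, with KO1 above WT1 in 17 genes. These are single samples, so this difference has no replicate check. Summed over the list, the level was 543 CPM in WT1, 567 CPM in KO1, 7518 CPM in WT2 and 9225 CPM in KO2.

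**Figure D2:**
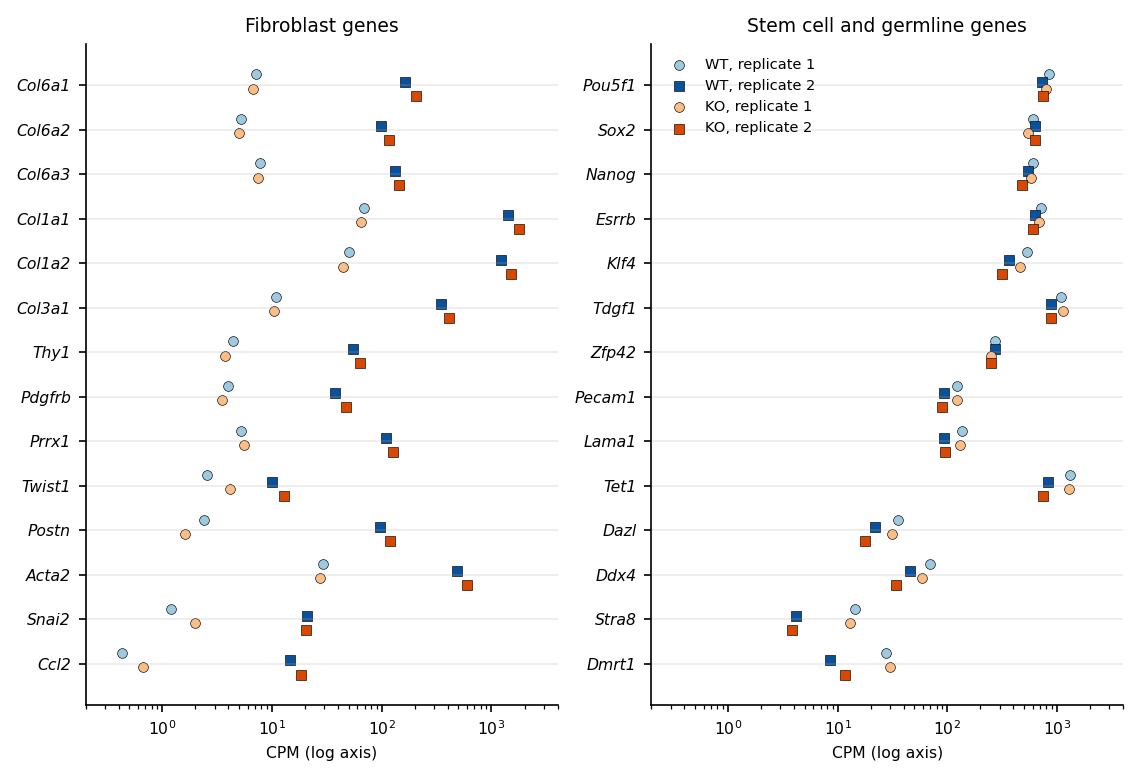
CPM in each of the 4 ESC samples (log axis, circles for replicate 1 and squares for replicate 2, blue for WT and orange for KO) for 14 fibroblast genes and 14 stem cell and germline genes. Every fibroblast gene shown separates circles from squares by more than 2-fold, whereas Pou5f1 stays between 736 and 841 CPM in all samples.

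The matrix beyond these markers followed. In the list of interstitial matrix and remodelling genes, 35 of 36 were higher (median log2 fold change 3.91), and Plod2, a collagen lysyl hydroxylase, did not pass the test (log2 0.10, adjusted p = 0.12 in edgeR). The list shares 17 genes with the fibroblast list. Of the 19 others, 18 were higher and 15 more than 2-fold, with a median of 1.80. The thrombospondin gene Thbs1 rose from 110 and 114 CPM to 1951 and 2368 CPM. Fibronectin (Fn1) was already at 1079 and 1232 CPM in replicate 1 and reached 2990 and 3473 CPM, a 2.79-fold rise, and the collagen chaperone gene Serpinh1 rose 3.55-fold. The prolyl hydroxylase gene P4ha1 (log2 0.62) and Fbln1 (log2 0.28) moved little.

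Basement membrane genes gave a mixed picture. Of 14, 7 were higher and 3 lower, and the median log2 fold change was 0.23. The laminin alpha chain gene Lama1 was lower, at 135 and 131 CPM in WT1 and KO1 and 93.4 and 95.9 CPM in WT2 and KO2 (log2 -0.49, SE 0.06). Lama5 (log2 -0.26) and Lamc1 (log2 -0.21) were also lower. Lamb2 (log2 0.99), Nid1 (log2 0.54) and Lamb1, the beta chain gene at 216 and 223 CPM against 292 and 307 CPM (log2 0.45), were higher, as was Sparc, which encodes a collagen-binding matrix protein (log2 1.63). Col4a1 and Col4a2, the head-to-head genes of the main type IV collagen, were higher in each pair, Col4a1 at 77.1 and 48.5 CPM against 156 and 177 CPM, but differed between the replicate 1 samples too and had adjusted p-values of 0.25 and 0.19 in edgeR. Both passed in DESeq2 (adjusted p = 0.0079 and 4.4e-05), without robust estimation and with either shared spread, at nearly the same fold.

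Pluripotency genes shifted little and mostly downward. Of 28 core and naive genes, 17 were lower and 3 higher, none by 2-fold, with a median log2 fold change of -0.16. Pou5f1 was at 841 and 789 CPM in WT1 and KO1 and at 736 and 739 CPM in WT2 and KO2 (log2 -0.14, SE 0.05, adjusted p = 0.012 in edgeR), and Nanog had a log2 fold change of -0.21. The replicate numbers did not overlap for either, but the difference was small beside that of any fibroblast gene. Pou5f1 was not called in DESeq2 (adjusted p = 0.18), nor with all 4 samples and no genotype term (adjusted p = 0.073 in edgeR). Nanog lost its call with the spread shared with all 22 samples (adjusted p = 0.23 in edgeR). With 1 sample and the genotype term left out, the log2 fold change of Pou5f1 lay between -0.19 and -0.09. That of Nanog was -0.16 without WT1, -0.25 without KO1 and -0.12 without KO2. Klf4, a LIF-responsive factor of the naive state, changed most (535 and 459 CPM against 367 and 315 CPM, log2 -0.54, SE 0.05). Also lower were Dppa3 (log2 -0.47), the adhesion molecule gene Pecam1 (log2 -0.45) and the Nodal co-receptor gene Tdgf1 (log2 -0.35).

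Sox2 (log2 0.15), Tbx3 (log2 0.24) and Gbx2 (log2 0.48) were higher, and Zfp42, a marker of the naive state also known as Rex1, was at 269 and 247 CPM in replicate 1 and 272 and 251 CPM in replicate 2. The 17 lower calls fell to 8 in DESeq2 and to 2, Tdgf1 and Pecam1, with the spread shared with all 22 samples, and no core gene was then higher. The fibroblast genes above moved with these shifts, and their part in them was not tested. In the list of formative and primed genes, which mark the step toward differentiation, 4 of 16 were higher and 2 lower. The shares over all genes were 20.6% and 16.8%. Otx2, a driver of that step, was at 31.5 and 36.5 CPM against 50.2 and 48.7 CPM, while Fgf5 stayed between 0.75 and 1.48 CPM. Cdh2, the cadherin of mesenchymal and neural cells, had the largest change of that list (log2 2.77).

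Some markers of other lineages were too low to test, and those tested moved in both directions or did not pass. In the primitive streak list only 2 of 14 genes, Eomes and Cdx1, were high enough to test, and neither passed. Of 14 primitive endoderm genes tested, 4 were higher and 3 lower, beside 20.6% and 16.8% of all genes. The higher genes were Dab2, Pdgfra, Sparc and Lamb1, of which Pdgfra (2.38 and 3.16 CPM against 27.9 and 29.9 CPM) is also a fibroblast receptor, and Gata4, a defining factor of that lineage, was at 4.34 CPM in WT1 and between 1.57 and 1.84 CPM in the other samples. The log2 fold change of Gata4, -0.92, rested on WT1, and it was -0.18 without WT1 and without the genotype term. Gata6 (log2 0.55) and Sox7 (log2 0.69) did not pass the test. In the trophoblast list 3 of 11 were higher and 3 lower, beside the same shares of all genes. In the early neural list 4 of 8 were higher, among them Nes, and 1 was lower. Lyz2, the lysozyme gene of macrophages, rose from 0.43 and 0.59 CPM to 12.8 and 11.9 CPM, the only gene of the blood list past the threshold, with Ptprc at 0 in both replicate 1 samples and at 0.75 and 0.35 CPM in WT2 and KO2.

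**Figure D3:**
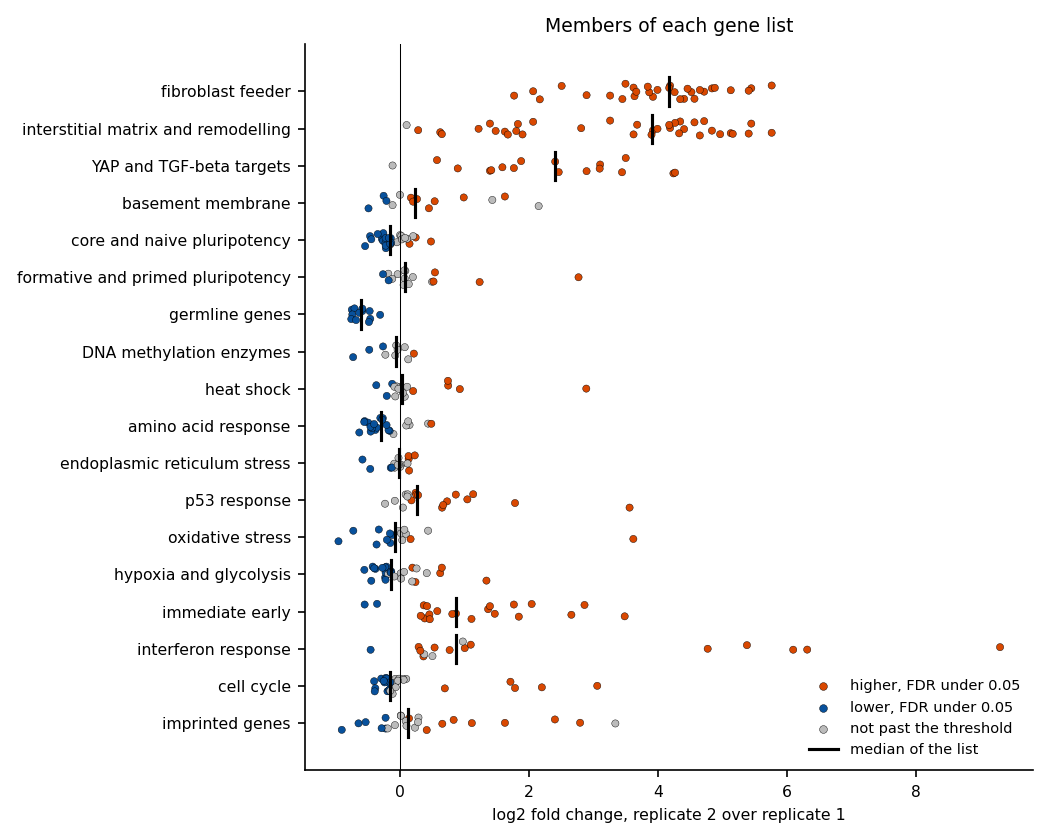
log2 fold change (replicate 2 over replicate 1) of the tested members of 18 gene lists, orange for higher and blue for lower at an FDR under 0.05, grey for neither, with a bar at the median of each list. The fibroblast and matrix lists have medians of 4.18 and 3.91, while the pluripotency list lies within -0.54 and 0.48, and the rightmost point is Usp18, at 0 counts in replicate 1, whose fitted value depends on the prior count.

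Germline genes fell together. ESCs transcribe at a low level a set of genes whose products serve meiosis and germ cell development, and which promoter methylation and the PRC1.6 complex keep down. All 12 of the 14 list members that could be tested were lower (median log2 fold change -0.61, range -0.76 to -0.31), against 16.8% of all genes. The RNA helicase gene Ddx4 was at 69.7 and 59.1 CPM in replicate 1 and 45.3 and 33.8 CPM in replicate 2, and Dazl, which encodes an RNA-binding protein of germ cells, at 35.5 and 31.0 CPM against 21.8 and 17.8 CPM. The synaptonemal complex gene Sycp3 had a log2 fold change of -0.76 (SE 0.14) and the meiotic cohesin gene Stag3 of -0.48 (SE 0.06). For Ddx4 and Dazl both replicate 2 samples lay below both replicate 1 samples. The number lower was 7 in DESeq2, 2 with the spread shared with all 22 samples, 0 with that shared with the NPC (neural progenitor cell) samples, and 6 to 9 with 1 sample left out (6 without WT1 or KO2).

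The promoters of these genes are shown because most share 1 motif. The E-box CACGTG, searched on both strands (it reads the same on each) in the 250 bases before the annotated start, occurred in 9 of the 11 tested germline genes with a promoter in RefSeq (GRCm38.p6), in 6.86% of 27025 genes and in 0 of 17 fibroblast genes. Among core and naive pluripotency genes it occurred in 2 of 18. A match describes the letters and is not evidence of binding. The 150 bases before the start of Sycp3 (chr10:88459437-88459586, plus strand) and of Hormad1, another meiotic gene (chr3:95559527-95559676, plus strand), are printed from 5′ to 3′ with the motif in capitals.
Sycp3: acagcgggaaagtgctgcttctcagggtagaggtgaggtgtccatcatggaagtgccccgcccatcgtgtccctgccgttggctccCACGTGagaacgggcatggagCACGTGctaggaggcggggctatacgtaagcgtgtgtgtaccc
Hormad1: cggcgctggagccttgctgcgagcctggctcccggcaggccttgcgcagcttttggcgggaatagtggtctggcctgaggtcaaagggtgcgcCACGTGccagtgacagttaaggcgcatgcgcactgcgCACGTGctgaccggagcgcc
Both genes were lower in replicate 2, Sycp3 at 14.5 and 17.2 CPM against 9.12 and 9.60 CPM and Hormad1 at 29.9 and 25.8 CPM against 23.0 and 14.4 CPM.

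Of the genes for DNA methylation enzymes, Tet1 and Tet2, which oxidize methylcytosine, were lower. Tet1 was at 1322 and 1281 CPM in WT1 and KO1 and at 821 and 751 CPM in WT2 and KO2 (log2 -0.73, SE 0.05), and Tet2 had a log2 fold change of -0.48 (SE 0.05). The methyltransferase gene Dnmt3a was lower too (log2 -0.26), at 304 and 342 CPM in WT1 and KO1 and 233 and 308 CPM in WT2 and KO2. It did not pass with a gene length offset (log2 -0.11) or without the genotype term (adjusted p = 0.25 in edgeR). Zfp57, a guardian of imprints, was higher (log2 0.21). Dnmt1 and Dnmt3b had adjusted p-values of 0.38 and 0.60 in edgeR. The Tet1 call held in every alternative except the 2-fold limit and the spread shared with the NPC samples.

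The 7 stress lists did not move as 1 block. Of their 134 genes, all tested, 48 were higher and 46 lower, and 17 of the higher but 0 of the lower changed more than 2-fold, beside 8.00% and 0.670% of all genes. The amino acid response, the ATF4 program induced when amino acids run short, was lower in 16 of 22 genes and higher in 1, Vldlr, with a median log2 fold change of -0.29. Atf4 itself was at 465 and 480 CPM against 357 and 368 CPM (log2 -0.38, SE 0.05), the kinase inhibitor gene Trib3 at 75.5 and 76.6 CPM against 49.8 and 48.3 CPM, and the glutathione-degrading enzyme gene Chac1 at 42.9 and 43.2 CPM against 30.4 and 30.6 CPM. All 3 genes had nearly the same level in WT and KO and separated by replicate number. The list counted 10 lower genes in DESeq2, 4 with the spread shared with all 22 samples, 0 with that shared with the NPC samples, and 10 to 14 with 1 sample left out.

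The p53 list moved upward, with 12 of 18 genes higher and 0 lower (median log2 fold change 0.27). Cdkn1a, the p21 inhibitor of cyclin-dependent kinases, was at 51.5 and 44.3 CPM against 152 and 178 CPM (log2 1.78, SE 0.07). Ccng1 (log2 0.86), Mdm2 (log2 0.73) and Phlda3 (log2 1.13) rose, and the death receptor gene Fas rose from 0.51 and 0.29 CPM to 3.81 and 5.67 CPM. The apoptosis genes Bbc3 and Pmaip1 had log2 fold changes of 0.09 and 0.18, of which that of Pmaip1 passed the test. Cdkn2a and Cdkn2b, inhibitors that accumulate in fibroblasts grown in culture, were higher as well (log2 1.71 and 3.06).

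**Figure D4:**
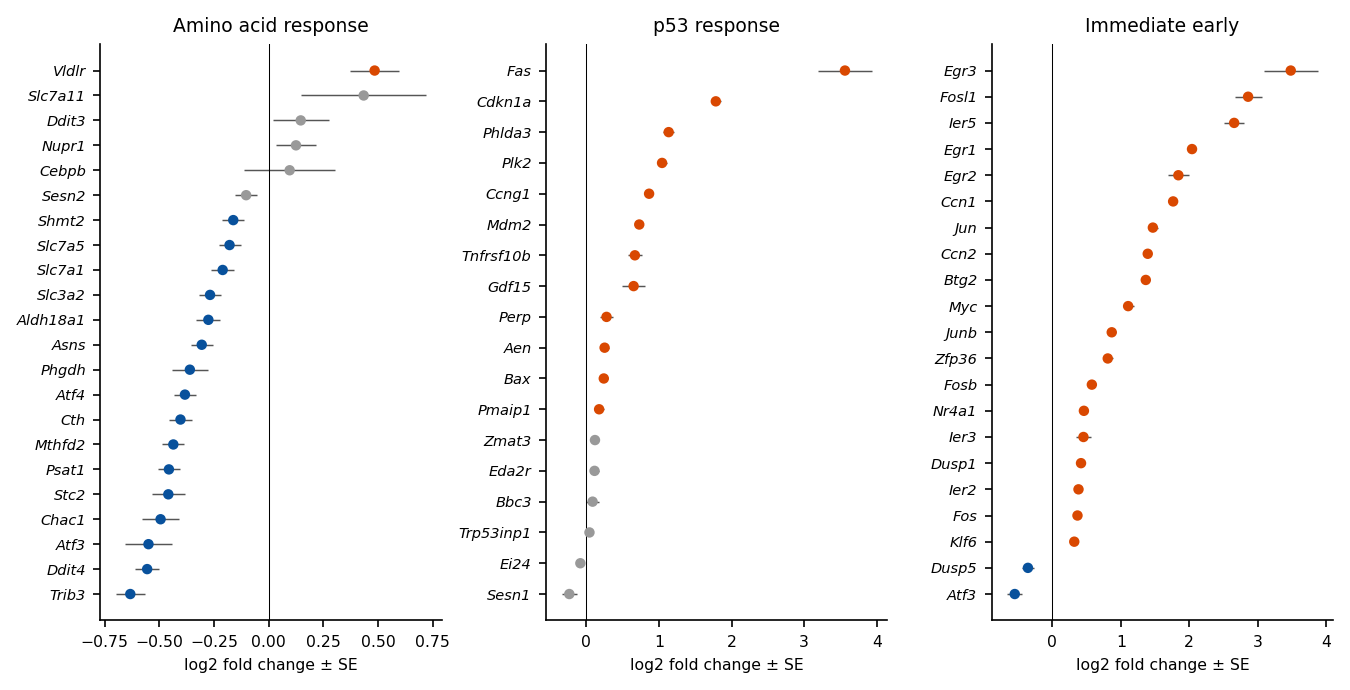
log2 fold change (replicate 2 over replicate 1) with its SE for each gene of the amino acid response, p53 response and immediate early lists, orange for higher and blue for lower at an FDR under 0.05. The amino acid genes lay between -0.63 and 0.48, and the immediate early genes reached 3.49.

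Immediate early genes, which serum and growth factors switch on within minutes through ERK and SRF, were higher in 19 of 21 cases and lower in 2 (median log2 fold change 0.87). Egr1 was at 163 and 152 CPM in WT1 and KO1 and at 638 and 659 CPM in WT2 and KO2 (log2 2.04, SE 0.05). Jun rose from 36.6 and 37.1 CPM to 97.0 and 107 CPM and Myc from 29.5 and 27.5 CPM to 59.9 and 62.8 CPM, whereas Fos rose less (log2 0.37). Fosl1, an AP-1 subunit typical of mesenchymal cells, had a log2 fold change of 2.86 (SE 0.20). Atf3 (log2 -0.55) and Dusp5 (log2 -0.36) were the lower genes. Targets of YAP, which responds to stretched actin and stiff matrix, and of TGF-beta rose in 16 of 17 cases (median log2 fold change 2.41). Among them were Ankrd1 (1.19 and 1.32 CPM against 21.7 and 26.1 CPM) and Axl. The list overlaps the matrix list, and its highest log2 fold change, 4.27, was that of Thbs1, counted there too.

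Heat shock genes were divided, with 5 of 16 higher and 3 lower (median log2 fold change 0.02), beside 20.6% and 16.8% of all genes. Cryab, a small heat shock protein gene also active in mesenchymal cells, was at 2.13 and 3.08 CPM against 17.3 and 21.5 CPM, and Bag3 had a log2 fold change of 0.74. The heat-inducible gene Hspa1a was low throughout, between 0.85 CPM in WT1 and 2.09 CPM in KO2, and passed the test narrowly (log2 0.93, SE 0.39, adjusted p = 0.050 in edgeR). The abundant chaperone genes Hsp90aa1 (log2 -0.21) and Hsp90ab1 (log2 -0.12) were lower. In the endoplasmic reticulum list 4 of 16 were higher and 4 lower, beside the same shares of all genes. Herpud1 (log2 -0.58) and Dnajb9 (log2 -0.46) had the largest changes.

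In the oxidative stress list 8 of 16 were lower and 2 higher. Both metallothionein genes, which buffer zinc and respond to metals, had the largest falls, Mt2 at 399 and 457 CPM against 204 and 237 CPM (log2 -0.96, SE 0.05) and Mt1 with a log2 fold change of -0.73 (SE 0.05). The glutathione synthesis gene Gclc was lower by less (log2 -0.37). Of 27 hypoxia and glycolysis genes 14 were lower and 5 higher (median log2 fold change -0.14). The lower genes numbered 10 in DESeq2, 6 to 9 with 1 sample left out, and 1 and 0 with the spread shared with all 22 and with the NPC samples, where 0 were higher. The glucose transporter gene Slc2a3 was at 1669 and 1744 CPM against 1321 and 1296 CPM and the prolyl hydroxylase gene Egln3 had a log2 fold change of -0.55, whereas the vasodilator gene Adm rose (log2 1.34).

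Interferon-stimulated genes, which antiviral signalling turns on, were higher in 12 of 16 cases and lower in 1, Ifitm1 (median log2 fold change 0.87). Several were not detected or nearly so in replicate 1. Usp18, which restrains the interferon receptor, had 0 counts in WT1 and KO1 and stood at 7.25 CPM in WT2 and 5.50 CPM in KO2, at least 26.8-fold higher against a floor of 3 counts per library. With Usp18 at that bound the median of the list is still 0.87. Isg15, the ubiquitin-like modifier, was at 0 and 0.22 CPM against 9.72 and 7.94 CPM, a ratio of 75.3 (95% exact interval 25.4 to 368) over 3 counts in replicate 1. In contrast to the fibroblast genes, KO2 was above WT2 in only 3 of the 16, with single samples on each side. The list counted 6 higher genes in DESeq2 and 6 with the spread shared with all 22 samples. Members near 0 in replicate 1, such as Usp18 and Isg15, passed the expression filter only through replicate 2, where they are high. With at least 10 counts required in each sample, 7 were higher.

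The interferon-stimulated element, searched as GAAA, any 2 bases and GAAA again on both strands with overlaps allowed, occurred in the 250 bases before the start of 7 of the 14 tested genes of this list with a RefSeq promoter, against 3.46% of 27025 genes and 1 of 17 fibroblast genes. The 150 bases before Isg15 (chr4:156200819-156200968, minus strand) and Ifit1 (chr19:34640739-34640888, plus strand) are printed with it in capitals, since both genes rose from almost no counts.
Isg15: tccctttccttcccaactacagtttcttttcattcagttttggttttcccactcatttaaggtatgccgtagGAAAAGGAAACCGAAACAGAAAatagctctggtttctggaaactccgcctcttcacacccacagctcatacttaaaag
Ifit1: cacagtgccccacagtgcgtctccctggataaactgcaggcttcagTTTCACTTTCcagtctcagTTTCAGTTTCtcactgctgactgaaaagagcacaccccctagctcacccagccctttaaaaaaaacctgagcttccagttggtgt
Isg15 holds 3 overlapping matches and Ifit1 holds 2, and Ifit1 was at 0 and 0.44 CPM in replicate 1 against 11.9 and 8.81 CPM in replicate 2.

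Ranked by fold, the 12 named genes that rose most were Ifi44, Usp18, Agtr2, Mcpt8, Aspn, Isg15, Postn, Lrrc17, Dnm3os, Ly6a, Ifit1 and Ccl7. Ifi44 and Agtr2, an angiotensin II receptor gene of fetal mesenchyme, had 0 counts in both replicate 1 samples and were at least 31.2-fold and 25.5-fold higher. Like Usp18, they passed the expression filter only through replicate 2, and their rank depends on the prior count. None of these was called in DESeq2 (adjusted p = 0.15 for Ifi44, 0.16 for Usp18 and 0.17 for Agtr2). Mcpt8, Aspn, Isg15, Lrrc17, Ly6a, Ifit1 and Ccl7 had at most 10 counts in each replicate 1 sample. They too passed the filter only through replicate 2, and their order by fold rests on those few counts. Aspn, a proteoglycan gene, had a log2 fold change of 6.28 (SE 0.28). The chemokine gene Ccl7 was at 0.43 and 0.44 CPM against 16.2 and 18.4 CPM, and Ly6a, which encodes the antigen Sca-1, at 0.51 and 0.73 CPM against 27.1 and 28.7 CPM. Dnm3os, at 1.11 and 1.03 CPM against 46.9 and 56.5 CPM, lies antisense to Dnm3, and reads from the strands of such a pair cannot be told apart in counts made without strand.

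The 12 that fell most were Stra8, Dmrt1, Osr2, Megf11, Cspg5, Syt4, Mlf1, Dpp4, Ppm1e, Greb1l, Frem2 and Kmt2c. Of these, Cspg5, Mlf1, Ppm1e and Greb1l were not called in DESeq2 (adjusted p = 0.059 to 0.12). With the spread shared with the NPC samples, Osr2, Megf11, Syt4, Dpp4 and Greb1l lost their calls, Osr2 and Syt4 also with that of all 22 samples. Stra8, which starts meiosis in response to retinoic acid, was at 14.5 and 12.8 CPM against 4.19 and 3.84 CPM (log2 -1.77, SE 0.17), and Dmrt1, a transcription factor of the testis and germ cells, at 27.8 and 30.2 CPM against 8.60 and 11.6 CPM (log2 -1.53, SE 0.12). Both belong with the germline genes by function though they were not in that list. Kmt2c, an H3K4 methyltransferase gene, was the most abundant, at 168 and 172 CPM against 83.1 and 80.7 CPM (log2 -1.05, SE 0.06).

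Of 29 cell cycle genes 14 were lower and 5 higher (median log2 fold change -0.15). The lower genes numbered 2 without WT1, 3 without KO1, 5 without KO2, 5 in DESeq2, and 2 and 0 with the spread shared with all 22 and with the NPC samples, while 4 or 5 were higher in every alternative. The proliferation marker Mki67 was at 370 and 345 CPM against 289 and 259 CPM (log2 -0.38, SE 0.05) and the checkpoint kinase gene Bub1 had a log2 fold change of -0.39. The cyclin gene Ccnd2, little used by ESCs, was higher (log2 2.20, SE 0.06). Of 24 imprinted genes tested, 8 were higher and 6 lower, beside 20.6% and 16.8% of all genes. The fetal growth factor gene Igf2 was at 27.0 and 25.6 CPM against 169 and 195 CPM and Dlk1 at 3.83 and 5.43 CPM against 20.8 and 28.3 CPM, while Peg3 (log2 -0.91) and Peg10 (log2 -0.65) were lower. H19, the RNA next to Igf2, was at 30.5 CPM in WT1 but 8.15 CPM in KO1, against 182 and 184 CPM, and did not pass the test (adjusted p = 0.23 in edgeR), though it did in DESeq2 (adjusted p = 6.2e-04).

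Sex chromosome genes set the KO samples apart. Xist, the RNA that coats the inactive X chromosome of female cells, was at 12.3 and 9.91 CPM in replicate 1 and at 41.5 and 53.1 CPM in replicate 2 (log2 2.09, SE 0.11), and the Y-linked demethylase gene Kdm5d at 0.26 and 0.29 CPM against 2.32 and 2.53 CPM. The other Y-linked genes followed genotype. Ddx3y was at 71.2 CPM in WT1 and 62.3 CPM in WT2 but at 3.82 CPM in KO1 and 16.6 CPM in KO2, Eif2s3y at 68.0 and 50.6 CPM against 2.13 and 8.03 CPM, and Uty at 30.4 and 27.8 CPM against 1.10 and 4.89 CPM. All 3 were lower in WT2 than in WT1 and higher in KO2 than in KO1, and with replicate number as the factor their adjusted p-values were 0.87, 0.94 and 0.90 in edgeR.

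**Figure D5:**
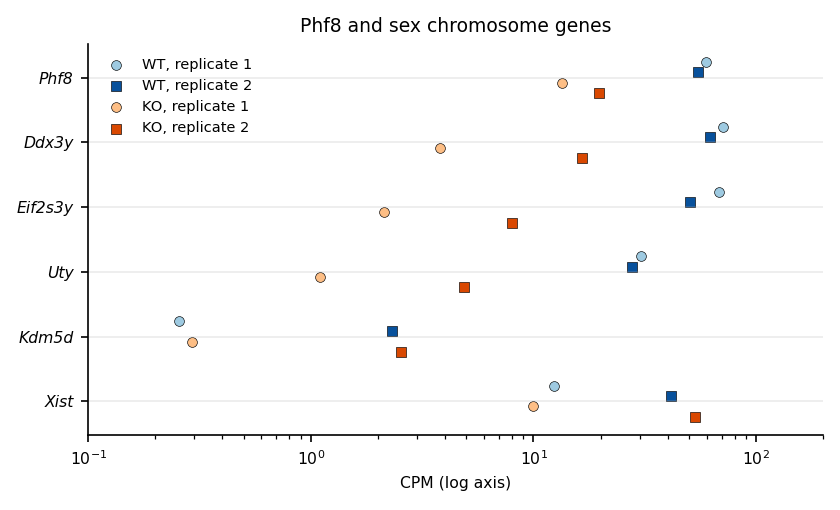
CPM of Phf8, 4 Y-linked genes and Xist in the 4 ESC samples (log axis, circles for replicate 1, squares for replicate 2, blue for WT and orange for KO). Ddx3y, Eif2s3y, Uty and Phf8 have KO2 above KO1 and both below WT, whereas Kdm5d and Xist separate by replicate number.

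No autosome moved as a whole. The median log2 fold change per autosome, over genes with a mean above 5 CPM, lay between -0.061 (chromosome 12) and 0.022 (chromosome 19), and it was -0.059 on the X chromosome. When genes were split by GC content into 5 equal groups, 889 were higher and 242 lower in the group of highest GC, against 459 and 742 in the group of lowest GC. With a GC offset in each sample, 3031 genes were higher and 2272 lower, among them 31 fibroblast genes higher and 17 pluripotency and 11 germline genes lower.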

How the data were processed

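RNA libraries (Illumina TruSeq) from 22 mouse samples were sequenced by the authors, and the 4 ESC samples were used for the comparison, the others only for the spread in 2 alternatives. STAR was the authors' aligner (build mm10), and HTSeq with Ensembl release 75 their counter. The deposited ESC tables hold raw counts for each gene, and their names mark them as unstranded. The submitters' processing notes also list CASAVA 1.7. Lines for reads off genes were left out of the totals. Gene names, positions and lengths came from GENCODE M21 on GRCm38, which matched 37607 of 39179 identifiers with 99.6% of ESC counts, and list symbols not found were looked up among RefSeq synonyms. Snrpn and Kcnq1ot1 could not be matched.

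Groups and replicate numbers came from the sample titles. Counts were tested with edgeR 4.0.16 (R 4.3.3): TMM factors, edgeR's expression filter by replicate number, genotype and replicate number as terms, robust quasi-likelihood test, FDR by Benjamini-Hochberg. Fold changes are replicate 2 over replicate 1, and SEs are the log2 fold change over the root of F. DESeq2 1.42.0 and other settings were alternatives. With at least 11455757 counts a library, counting error is small except for genes at a few CPM. The script was tested on simulated counts. Named genes are members of described lists, Col6a1, Phf8, and the 12 genes each way with the largest change at an FDR under 0.05, a mean of at least 5 CPM in the higher replicate number and the same sign in both pairs. Predicted genes were counted but not named. The members and lists were chosen with earlier results of these data known. Total count scaling and the tests of genotype by replicate number were added after seeing the data. Some members of the lists are counted but not reported by name here.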

Additional observations from a re-analysis of the deposited data

Results flagged for a closer look

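The replicate difference was tested for a dependence on genotype, with the spread shared with other samples because the ESC samples leave none for it. With the spread of all 22 samples, 3 of 15080 genes passed an FDR of 0.05 in edgeR's quasi-likelihood test, and with that of the NPC samples 0 did (160 and 96 genes had an unadjusted p under 0.05). The 3 genes fall outside the rule for named genes and were singled out after their values were seen. Lars2, a mitochondrial leucyl-tRNA synthetase gene, was at 694 CPM in WT1, 67.8 CPM in WT2, 754 CPM in KO1 and 626 CPM in KO2, and the log2 difference in KO exceeded that in WT by 3.07. Gm15564, a predicted gene, was at 156, 8.00, 171 and 147 CPM in the same order (4.04), and Mir6236 at 142, 7.92, 152 and 147 CPM (4.09). WT2 was the low sample for each.

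Phf8 and 3 Y-linked genes moved in opposite directions in the pairs, lower in WT2 than WT1 and higher in KO2 than KO1. The KO difference exceeded the WT difference by 2.28 (log2) for Ddx3y, 2.31 for Eif2s3y, 2.24 for Uty and 0.65 for Phf8, and none passed with either spread (adjusted p = 0.9999 for all 4 in edgeR with that of all 22 samples). The fibroblast list, summed, was highest in KO2 (9225 CPM), and its part in these differences was not tested.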

How the results depend on the processing

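No paired analysis was possible because the replicate number is the factor tested, with genotype as the block. For all genes and for the fibroblast, matrix, basement membrane, pluripotency and stress genes, the counts that moved by more than 1.5 times, each as higher and lower, were these. The cause was not tested except where fewer genes entered by construction. With a log2 fold change beyond 1 required, 1206 and 101 genes were called, 1 and 0 of the basement membrane, 0 and 0 of the pluripotency and 17 and 0 of the stress genes. DESeq2 called 1325 and 586 genes, 0 and 8 pluripotency and 30 and 28 stress genes. Without the genotype term 1386 genes were lower, and Pou5f1, Sox2, Hspa1a, Pmaip1 and Hsp90ab1 lost their calls. Fits with 1 sample left out also had no genotype term, so a call lost there cannot be put down to the sample alone. With the spread shared with the NPC samples, 1118 and 111 genes, 4 and 0 basement membrane, 0 and 0 pluripotency and 18 and 0 stress genes were called, and with that of all 22 samples 1341 and 638, 4 and 0, 0 and 2, and 17 and 13. TMM factors were taken over the same samples, and the median log2 fold change over all genes was 0.0046 and -0.092 in that order. Leaving out each sample in turn gave 1739 (without KO1) to 2129 (without WT2) genes higher and 595 (without KO1) to 1225 (without WT2) lower, 0 to 2 pluripotency genes higher and 5 to 11 lower, 31 to 37 stress genes higher and 23 to 30 lower, and 5 to 8 basement membrane genes higher and 1 to 3 lower. Fibroblast genes higher numbered 26 to 32 and matrix genes 26 to 35 over all alternatives. Of 157 called genes followed singly, none reversed under any alternative, but many lost their call. The number lost was 84 with the spread shared with the NPC samples, 60 with that of all 22 samples and 32 in DESeq2. Xist, Kdm5d, Twist1 and Klf4 were among those lost with both shared spreads. Over the single lists, 307 counts under an alternative moved by more than 1.5 times and 737 did not. For lists of small changes the calls depended on the setting. The p53 genes higher numbered 7 in DESeq2 and 5 and 6 with the NPC and all-sample spreads. Immediate early genes higher numbered 18, 10 and 8 in the same order, and oxidative stress genes lower 4, 0 and 4. Among genes named with a direction, Sox2, Pmaip1, Hsp90ab1, Hspa1a and Dusp5 lost their calls whichever sample was left out, and Hsp90aa1, Lamc1, Zfp57, Fbln1, Tbx3, Ifitm1 and Hormad1 (log2 -0.28 without KO2) for 3 of the 4 samples left out. Atf3 (WT1, WT2), Dppa3 (WT2, KO1), Peg3 (WT2, KO2), Vldlr (KO1, KO2), and Fos, Gbx2, Gclc, Greb1l and Lama5 (KO1) did so without the samples given. The rise of Kdr rested on KO2 (log2 0.005 without it and without the genotype term).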
